A study of Mus musculus with 78 samples.

Results

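The Notch pathway genes of the artery wall described here were 9 protein-coding genes of the 54532 genes in the table. They were chosen by name: the receptors Notch1, Notch3 and Notch4, the ligands Dll4, Jag1 and Jag2, and the target genes Hey1, Hey2 and Heyl. All 9 were among the 15707 genes that passed the filter on low values, which asked for 1 FPKM or more in 3 or more libraries. FPKM counts sequenced fragments relative to the length of the gene and the depth of the library, so levels can be set side by side between genes. RNA was taken from cerebral arteries of male wild-type C57Bl6 mice and sequenced in 78 libraries. The mice had fasted intermittently (IF) or eaten freely (ad libitum, AL) for 3 months, and then underwent either BCAS, a bilateral stenosis of the carotid arteries that reduces the supply of blood to the brain, or sham surgery. With collection on day 1, 7, 14, 21 or 30 after surgery this gave 20 groups, 5 each of BCAS IF, BCAS AL, sham IF and sham AL, and every group carried the same wild-type genotype. Groups held 4 libraries, but 3 in 2 groups (BCAS AL at day 1, and sham IF at day 7). Day 7 was named in the group labels and left out of the treatment text. Neither the fasting schedule nor the hour at which tissue was taken is given in the sources used here. Nothing states that libraries came from separate animals, so p-values measure the spread between these libraries, which may be technical.

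Notch receptors sit in the cell membrane and are activated by ligands on a neighbouring cell. The bound receptor is cut by ADAM proteases and then by gamma-secretase, and the freed intracellular part enters the nucleus, joins the DNA-binding protein Rbpj and the Maml coactivators, and switches on genes such as those of the Hes and Hey families. In arteries Notch1 and Notch4 are known mainly from endothelial cells and Notch3 from smooth muscle cells and pericytes, and in humans inherited changes of NOTCH3 cause a small vessel disease of the brain. Dll4 is a ligand of arterial endothelium, while Jag1 is made by both endothelium and smooth muscle.

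Promoter sequences are shown for 1 receptor, 1 ligand and 1 target whose levels differed between groups in the comparisons that follow. They come from RefSeq (build GRCm38.p6), whose promoter table matched 7 of the 9 genes, and run 5′ to 3′ on the gene's strand from 250 bases before the start of transcription to 20 bases after it. The Notch3 stretch is chr17:32166871-32167140 on the minus strand, the Dll4 stretch chr2:119325534-119325803 on the plus strand and the Hey2 stretch chr10:30842764-30843033 on the minus strand. Capitals mark matches to TGGGAA, the core of the Rbpj binding motif, or its reverse complement TTCCCA.
Notch3: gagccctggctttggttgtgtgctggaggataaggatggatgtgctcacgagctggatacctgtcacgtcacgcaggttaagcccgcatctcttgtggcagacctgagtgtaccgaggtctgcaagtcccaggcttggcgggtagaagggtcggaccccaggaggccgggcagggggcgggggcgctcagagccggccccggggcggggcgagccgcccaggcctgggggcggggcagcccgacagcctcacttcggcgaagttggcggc
Dll4: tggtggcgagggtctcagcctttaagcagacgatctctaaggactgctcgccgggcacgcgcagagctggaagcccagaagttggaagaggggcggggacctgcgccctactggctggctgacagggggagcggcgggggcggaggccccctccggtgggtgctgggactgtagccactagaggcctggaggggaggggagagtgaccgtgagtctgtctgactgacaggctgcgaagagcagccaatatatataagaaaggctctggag
Hey2: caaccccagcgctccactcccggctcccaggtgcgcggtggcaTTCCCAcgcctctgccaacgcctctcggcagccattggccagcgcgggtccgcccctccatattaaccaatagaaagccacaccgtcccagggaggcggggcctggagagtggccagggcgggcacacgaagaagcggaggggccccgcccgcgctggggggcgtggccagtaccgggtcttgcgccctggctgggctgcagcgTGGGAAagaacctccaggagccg

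Both strands of windows of 300 bases, 250 before and 50 after the start, were searched for TGGGAA and for the longer form GTGGGAA, which contains it. Of the 7 windows only that of Hey2 held a match. It held 2, beginning 207 and 3 bases upstream of the start, and both were also matches to the longer form. Over all 32817 promoters in the RefSeq table, 25.6% held TGGGAA and 6.39% held GTGGGAA. No match says only that these letters are not in the window. The share of G and C was between 55.7% in the Jag1 window and 86.0% in the Jag2 window, against a median of 52.7% over all promoters.

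On GRCm38, Notch1 lies on chromosome 2 (26457903 to 26516663, minus strand), Dll4 on chromosome 2 (119325784 to 119335962, plus) and Jag1 on chromosome 2 (137081456 to 137116644, minus). Notch3 and Notch4 lie on chromosome 17 (32120820 to 32166880, minus, and 34564268 to 34588503, plus), Jag2 on chromosome 12 (112907819 to 112929776, minus), Hey1 on chromosome 3 (8663359 to 8667256, minus), Hey2 on chromosome 10 (30832359 to 30842801, minus) and Heyl on chromosome 4 (123233556 to 123249875, plus). Opposite-strand transcripts also share exon bases with Notch1, 7.50% with 0610009E02Rik and 2.91% with Gm13568, and with Notch3, 6.03% with Gm17276. Their medians were 0.276, 0.0466 and 0.0644 FPKM.

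The libraries held 14601572 to 25944175 fragments, and each of the 9 genes was covered by at least 142 fragments in every library. Markers of the artery wall were high in every arm: Acta2, smooth muscle actin, had a median of 5040 FPKM and Pecam1, an endothelial adhesion molecule, a median of 63.1 FPKM. All 12 endothelial and all 10 smooth muscle markers averaged at least 1 FPKM, while 6 of 8 neuron markers averaged less. Other cells were present by their markers. An average under 1 FPKM was found for 0 of 6 astrocyte and 1 of 6 oligodendrocyte markers, and for 0 of 6 fibroblast and 0 of 6 macrophage markers. The astrocyte marker Gfap had a median of 45.2 FPKM, and the oligodendrocyte marker Mbp reached 102 FPKM. The pituitary hormone gene Gh was listed between 0.366 and 4974 FPKM, and its part in the results was not tested. Of the BCAS libraries 1 stood apart (AL day 1, replicate 2), with 0.279% of fragments in genes shorter than 300 bases. Of the sham libraries 2 did (AL day 7, replicates 2 and 4), with 0.282% and 0.322%. The other libraries had 0.0563% to 0.106%. Results that changed without these 3 short-gene-rich libraries are given with and without them.

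Heyl was the most abundant of the 9 genes, with a mean of 36.4 ± 5.99 FPKM over the 78 libraries (SD), and Notch1 the least, with 1.38 ± 0.544 FPKM. Between them lay Jag1 at 24.8 ± 3.09, Notch3 at 21.6 ± 4.90, Hey2 at 16.4 ± 3.06, Jag2 at 12.1 ± 1.68, Notch4 at 8.57 ± 1.36, Dll4 at 7.34 ± 1.62 and Hey1 at 6.52 ± 1.20 FPKM. The order was steady for some neighbours and loose for others. Jag2 was above Notch4 and Hey1 above Notch1 in 78 of 78 libraries, and Heyl above Jag1 in 76. Jag1 exceeded Notch3 in 59 libraries, Dll4 exceeded Hey1 in 58 and Notch4 exceeded Dll4 in 57.

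**Figure D1:**
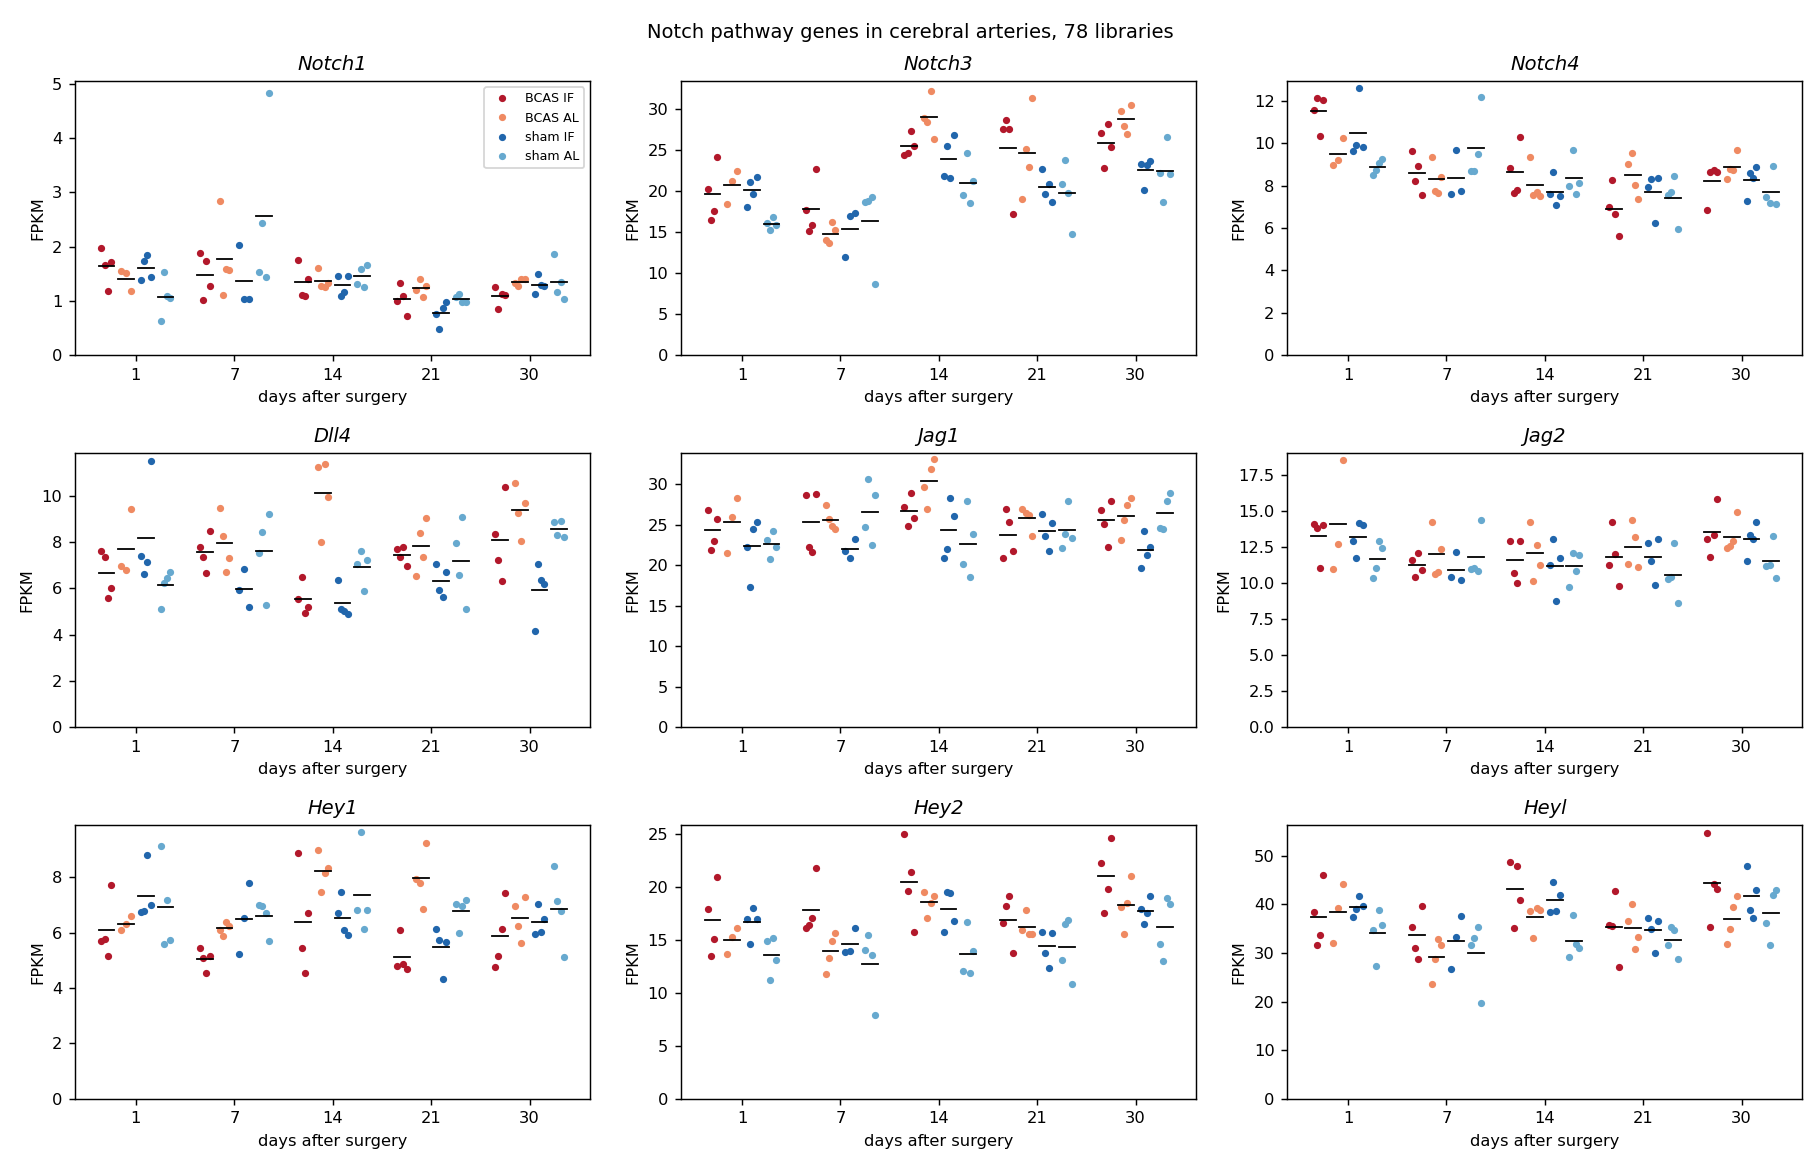
FPKM of the 9 genes in each of the 78 libraries (points) by day after surgery, with the group mean as a bar and the arms in the order BCAS IF, BCAS AL, sham IF and sham AL. The mean of Notch3 was lowest in BCAS AL on day 7 and highest in BCAS AL on day 14, and 1 sham AL library on day 7 stood apart for Notch1 at 4.83 FPKM.

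Notch3, the receptor of mural cells, rose after BCAS relative to sham surgery under AL and as the mean of both diets. In the BCAS AL arm it ran from 13.7 through a median of 25.1 to 32.2 FPKM (n = 19), against 8.71, 19.1 and 26.6 FPKM in sham AL (lowest, median and highest, n = 20). In the BCAS IF arm it ran from 15.1 through 24.3 to 28.7 FPKM (n = 20), against 12.0, 21.1 and 26.9 FPKM in sham IF (n = 19). The arms overlapped under both diets. Differences were tested with limma on log2(FPKM + 1), and Benjamini-Hochberg adjustment covered every gene tested, with a threshold of 0.05. On this scale the change of a low gene comes out too small, which touches Notch1 most.

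Under AL, Notch3 rose by 0.28 ± 0.07 on the log2 scale (SE, adjusted p = 0.024) as the mean over days, and it was the 1 gene of the 9 that passed. Over all genes 0.987% passed, 0.821% higher and 0.166% lower. Under IF the Notch3 change was 0.14 ± 0.07 (adjusted p = 0.495). There 0 of the 9 genes passed in limma or in limma-voom, beside 0.758% of all genes, 0.522% higher and 0.236% lower. An unadjusted p below 0.05 was found for 5 of the 9 genes, beside 1518 of all 15707 genes. Without the 3 short-gene-rich libraries the AL change of Notch3 was 0.22 ± 0.06 (adjusted p = 0.0768). It missed the threshold without the filter on low values (0.0598) and with only the compared groups in the fit (0.0713), and it also missed the threshold when any of 3 single libraries was left out, which were replicate 3 of BCAS AL at day 1 (0.0592), replicate 4 of BCAS AL at day 21 (0.0508) and replicate 4 of sham AL at day 21 (0.0525). By day under AL, Notch3 was higher after BCAS on 4 of 5 days, from -0.08 on day 7 to 0.45 on day 14, and under IF also on 4 of 5 days, from -0.05 on day 1 to 0.27 on day 21. The day 7 value under AL depends on replicate 4 of sham AL, a short-gene-rich library with 8.71 FPKM. The other sham AL libraries of that day had 18.7 to 19.3 FPKM, above all BCAS AL libraries (13.7 to 16.2 FPKM).

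Averaged over both diets and all days, 4 of the 9 genes rose after BCAS: Notch3 by 0.21 ± 0.05 (adjusted p = 0.00484), Hey2 by 0.19 ± 0.05 (0.00502), Dll4 by 0.18 ± 0.05 (0.0139) and Jag1 by 0.12 ± 0.03 (0.0262). Of all genes 3.54% passed, 2.37% higher and 1.17% lower. The median change of the 9 genes was 0.09, against 0.00 over all genes tested. The other members did not pass: Jag2 changed by 0.09 ± 0.04, Heyl by 0.05 ± 0.04, Notch4 by 0.04 ± 0.03, Notch1 by 0.02 ± 0.05 and Hey1 by -0.07 ± 0.04. Jag1 missed the threshold without BCAS AL day 1 replicate 3 (adjusted p = 0.0503), without the filter on low values (0.0598), and with a score of brain tissue markers as a covariate (0.11 ± 0.03, adjusted p = 0.0836).

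Hey2, a transcriptional repressor and Notch target, had 11.8, 16.0 and 21.1 FPKM in BCAS AL (lowest, median, highest), against 7.90, 14.0 and 19.0 FPKM in sham AL. With IF it had 13.5, 18.1 and 25.1 FPKM in BCAS arteries, against 12.4, 16.6 and 19.6 FPKM in sham arteries. The Hey2 means were higher after BCAS on 5 of 5 days under each diet, with overlap between the arms. Dll4 had 6.53, 8.41 and 11.4 FPKM in BCAS AL, against 5.09, 7.36 and 9.22 FPKM in sham AL, and 4.93, 7.30 and 10.4 FPKM in BCAS IF, against 4.17, 6.35 and 11.5 FPKM in sham IF. Under AL alone its change was 0.21 ± 0.06 (adjusted p = 0.0957), and 0.27 ± 0.07 (adjusted p = 0.0259) without the short-gene-rich libraries, so that Dll4 passed and Notch3 did not in that set.

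Endothelial and smooth muscle markers were compared in the same way, because RNA from bulk arteries cannot tell apart fewer cells of a type and less RNA per cell. After BCAS, over both diets, 6 of 12 endothelial markers rose, beside 2.37% of all genes that rose, among them Pecam1 by 0.24 ± 0.04 and Esam by 0.18 ± 0.03, and 3 of 10 arterial endothelial markers rose. Of the 10 smooth muscle markers 0 passed in limma, and their median change was 0.06. An unadjusted p below 0.05 was found for 3 of the 10, beside 2594 of all 15707 genes. Of 8 pericyte markers, the other mural cell list, 4 had one, both directions counted together. The endothelial score, the mean log2(FPKM + 1) of the 12 markers, ran from 4.67 to 5.09 in BCAS IF against 4.64 to 5.04 in sham IF, and from 4.84 to 5.15 in BCAS AL against 4.55 to 5.05 in sham AL. The smooth muscle score ran from 6.19 to 7.14 in BCAS IF against 6.08 to 7.02 in sham IF, and from 5.94 to 7.07 in BCAS AL against 5.54 to 7.06 in sham AL. The part of either score in the changes of Dll4, Jag1, Notch3 and Hey2 was not tested.

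**Figure D2:**
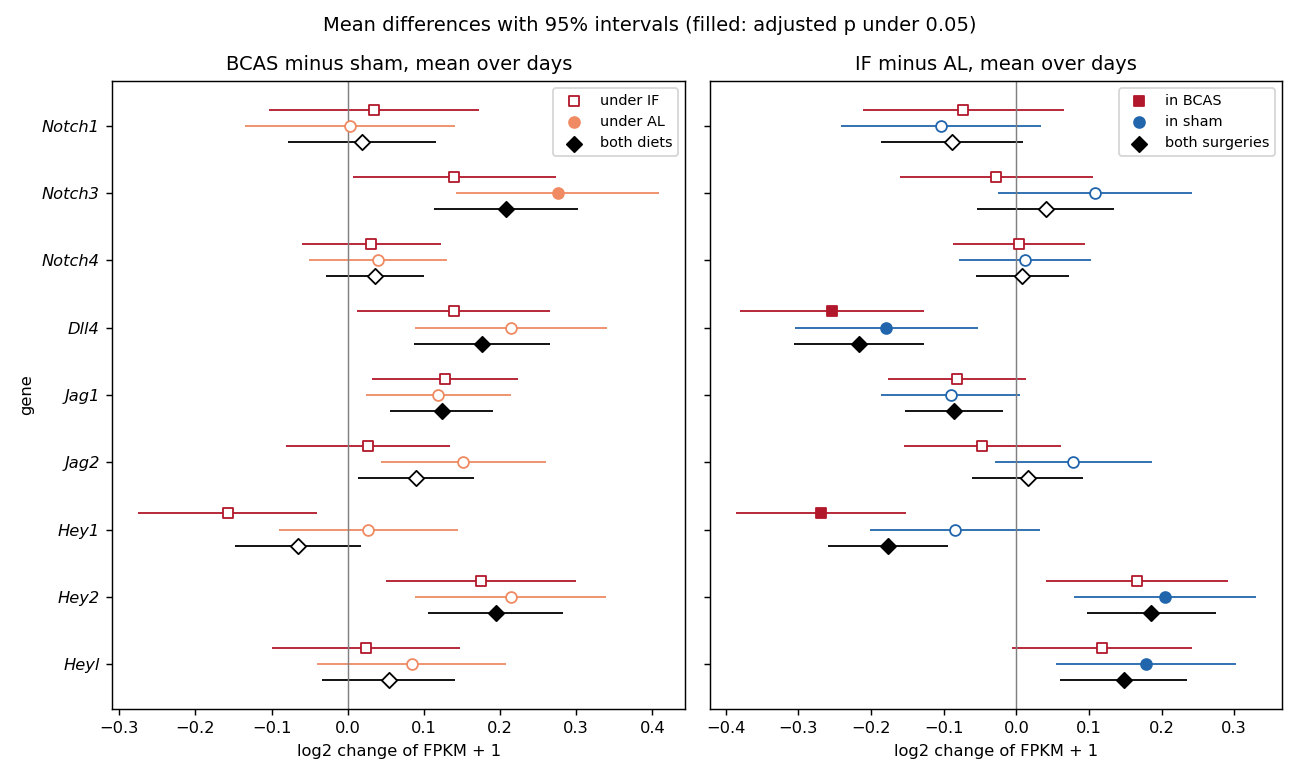
Log2 change of FPKM + 1 for BCAS minus sham (left) and IF minus AL (right), averaged over days, with bars of 1.96 standard errors on each side and filled symbols where the adjusted p was under 0.05. For BCAS over both diets 8 of the 9 genes, all but Hey1, lie right of 0, and Notch3, Dll4, Jag1 and Hey2 are filled. For IF over both operations Dll4, Hey1 and Jag1 are filled left of 0 and Hey2 and Heyl right of it.

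On single days 0 of the 9 genes passed for BCAS against sham in any of the 10 contrasts of diet and day, by limma or limma-voom. An unadjusted p below 0.05 was found in 7 of 45 gene-by-day tests under AL and in 3 of 45 under IF. Of all 15707 genes, 1829, 3150, 1674, 1028 and 1530 had one under AL on days 1, 7, 14, 21 and 30. Under IF these counts were 590, 1182, 490, 899 and 1775. The share of members was close to that of all genes under IF and somewhat above it under AL. Under AL 0.376%, 2.63%, 0.337%, 0% and 0.357% of all genes passed on days 1, 7, 14, 21 and 30, and under IF 0.00637%, 0.153%, 0%, 0% and 0.0891%. The closest was Jag1 on day 14 under AL, with 29.6, 27.0, 31.9 and 33.1 FPKM in BCAS AL, against 20.1, 28.0, 18.5 and 23.9 FPKM in sham AL. One sham library lay within the BCAS range and the other 3 below it. The change was 0.42 ± 0.11 (adjusted p = 0.0546), and it passed without the short-gene-rich libraries (adjusted p = 0.0379). On day 14 Dll4 differed by 0.48 ± 0.14, Notch3 by 0.45 ± 0.15 and Hey2 by 0.43 ± 0.14, with adjusted p-values of 0.134, 0.187 and 0.184. An F test of whether the BCAS difference changed between days found 0 of the 9 genes under AL, beside 1.97% of all genes, and 0 under IF, beside 0%, in limma and limma-voom. Counted over the 2 diets, 1 member passed when sham AL day 7 replicate 4, a short-gene-rich library, was left out. With all 3 short-gene-rich libraries left out the count was 0. Unadjusted p-values were below 0.05 for 2 members under AL (Notch4 and Jag1) and 1 under IF (Dll4), beside 2895 and 794 of all 15707 genes.

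The Hey targets did not move together with IF. Averaged over surgeries and days, Dll4 fell by 0.22 ± 0.05 on the log2 scale (adjusted p = 9.92e-05), Hey1 fell by 0.18 ± 0.04 (0.000538) and Jag1 fell by 0.09 ± 0.03 (0.0415), while Hey2 rose by 0.19 ± 0.05 (0.000688) and Heyl rose by 0.15 ± 0.04 (0.00614). These 5 of 9 genes stand beside 38.1% of all genes that passed in this contrast, 18.8% higher and 19.3% lower. The median change was 0.01 for the 9 genes and 0.01 for all genes. Notch3 changed by 0.04 ± 0.05, Jag2 by 0.02 ± 0.04, Notch4 by 0.01 ± 0.03 and Notch1 by -0.09 ± 0.05, and none of these 4 passed. The call of Jag1 was lost in 30 of the 78 fits that each left out 1 library. It was also lost without the short-gene-rich libraries (-0.07 ± 0.04, adjusted p = 0.127), without the filter on low values (0.0896) and with the brain marker covariate (0.0545). The comparisons of BCAS with sham and of IF with AL use the same libraries, so they are not independent of each other.

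Split by surgery, Dll4 was lower with IF after both operations. It fell by 0.25 ± 0.06 in BCAS (adjusted p = 0.00213) and by 0.18 ± 0.06 in sham (0.0352). The sham call was lost without the short-gene-rich libraries (-0.14 ± 0.07, adjusted p = 0.134), without the filter on low values (0.0802), with only the compared groups in the fit (0.0658) and in 11 of 78 fits without 1 library. Hey1, the other gene that passed in BCAS, had 4.53, 5.30 and 8.86 FPKM in BCAS IF (lowest, median, highest), against 5.64, 6.84 and 9.24 FPKM in BCAS AL. The median of BCAS IF lay below every BCAS AL library. Hey1 fell by 0.27 ± 0.06 there (adjusted p = 0.000441), against a change of -0.08 ± 0.06 in sham (0.325). With 2 of 9 genes called in BCAS, 23.1% of all genes passed, 11.2% higher and 11.9% lower.

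Among sham arteries 3 of the 9 genes passed, Dll4 lower and Hey2 and Heyl higher, beside 23.7% of all genes, 11.8% higher and 11.9% lower. Hey2 rose by 0.21 ± 0.06 (adjusted p = 0.0137) and Heyl by 0.18 ± 0.06 (0.0321). Heyl, a Hey family member described in smooth muscle cells and pericytes, had 26.6, 38.4 and 48.0 FPKM in sham IF, against 19.8, 33.8 and 43.0 FPKM in sham AL. In BCAS arteries the changes with IF were 0.17 ± 0.06 for Hey2 (adjusted p = 0.0503) and 0.12 ± 0.06 for Heyl (0.184). Without the short-gene-rich libraries Heyl in sham changed by 0.14 ± 0.06 (adjusted p = 0.0952) and Hey2 in BCAS by 0.17 ± 0.06 (0.0337). Heyl in sham also missed the threshold without the filter on low values (0.0739) and in 6 of 78 fits without 1 library. Hey2 in BCAS also passed with limma-voom (0.0432), with the brain marker covariate (0.0383) and with only the compared groups in the fit (0.0318). Hey2 means were higher with IF on 5 of 5 days after either operation.

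The interaction of BCAS and diet, tested as the BCAS difference under IF minus that under AL, gave 0 of the 9 genes in limma and in limma-voom, beside 0.0127% of all genes. Beside 629 of all 15707 genes with an unadjusted p below the threshold, Hey1 was the only member with one. Its interaction was -0.19 ± 0.08 (adjusted p = 0.999). For Notch3 it was -0.14 ± 0.10, with an interval of 1.96 standard errors from -0.32 to 0.05. So Notch3 passing under AL and not under IF, and Hey1 passing in BCAS and not in sham, are not shown to be differences between diets or operations.

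Markers were again set beside these results. With IF, over both operations, 1 endothelial marker rose and 3 fell of 12 (Flt1 by 0.24 ± 0.04, Kdr by 0.21 ± 0.06 and Tek by 0.12 ± 0.04 lower on the log2 scale), and 3 of 10 arterial endothelial markers rose and 3 fell. Of the 10 smooth muscle markers Smtn and Des rose, by 0.15 ± 0.05 and 0.13 ± 0.05, and Myocd, a coactivator of contractile genes, fell by 0.33 ± 0.05. These counts of 4 of 12 endothelial and 3 of 10 smooth muscle markers are below the share of all genes called in this contrast, 38.1%. The arterial endothelial markers, with 3 higher and 3 lower of 10, are above it. The median change was 0.01 for endothelial and 0.03 for smooth muscle markers. Their part in the changes of Dll4, Hey1, Hey2 and Heyl was not tested.

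**Figure D3:**
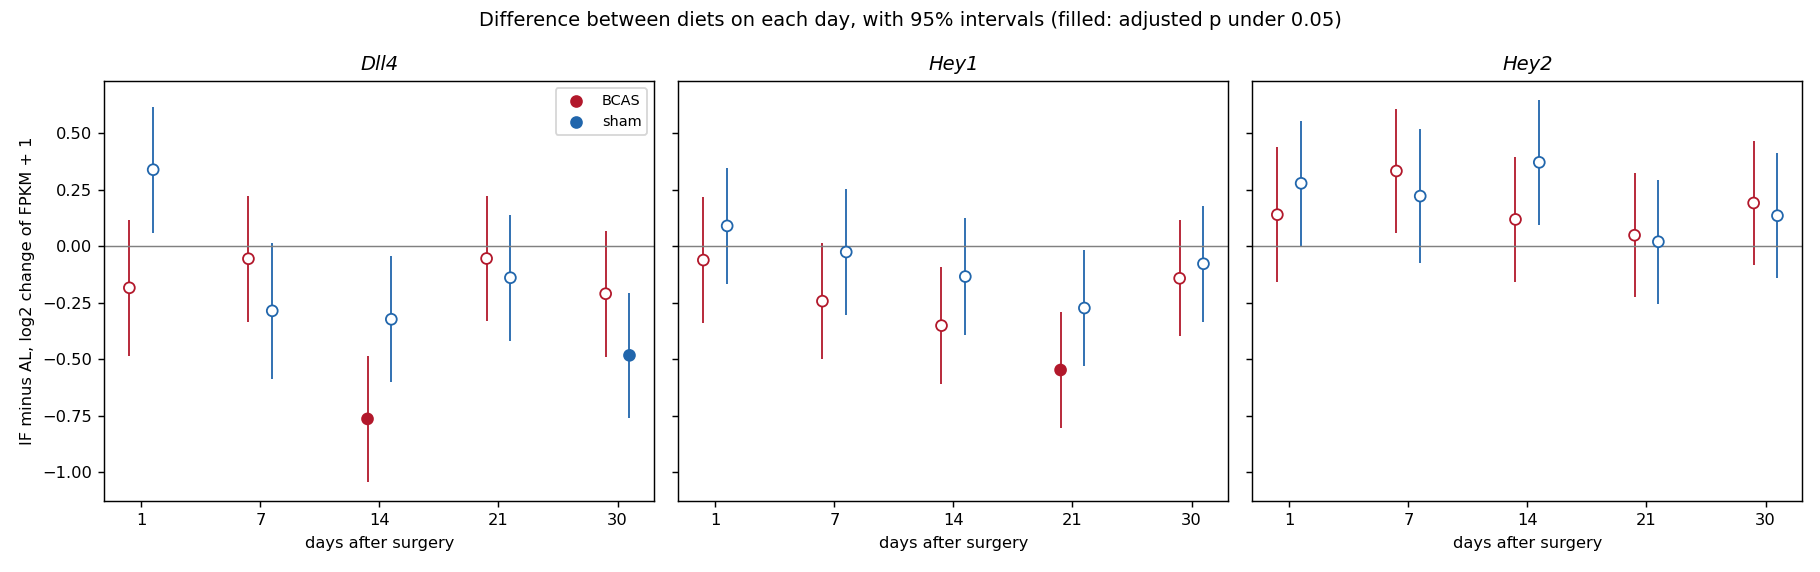
Difference between IF and AL (log2 change of FPKM + 1, with bars of 1.96 standard errors on each side) for Dll4, Hey1 and Hey2 on each day, in BCAS and sham arteries, filled where the adjusted p was under 0.05. Dll4 in BCAS on day 14 lies at -0.76, while Hey2 lies above 0 on all 5 days after both operations.

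Day by day, 4 tests of IF against AL passed among the 9 genes in 10 contrasts of surgery and day. In sham arteries 3.67%, 9.05%, 4.39%, 0.382% and 4.82% of all genes passed on days 1, 7, 14, 21 and 30, and in BCAS arteries 4.37%, 2.25%, 5.67%, 0.802% and 1.35%. The test with the smallest p was Dll4 in BCAS on day 14, with 5.53, 6.48, 4.93 and 5.17 FPKM in BCAS IF, against 11.2, 7.99, 11.4 and 9.94 FPKM in BCAS AL. Every IF library lay below every AL library. How many of all genes lack overlap in a daily contrast was not counted, here or for the tests below. The change was -0.76 ± 0.14 (adjusted p = 0.000202) and passed in every one of the 78 fits without 1 library and in all 8 alternative settings.

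Dll4 also fell with IF in sham arteries on day 30, with 4.17, 7.07, 6.35 and 6.18 FPKM in sham IF, against 8.88, 8.30, 8.91 and 8.22 FPKM in sham AL. Again the groups did not overlap, and the change was -0.48 ± 0.14 (adjusted p = 0.031). Leaving out 1 library ended this call in 5 of 78 fits, at most with an adjusted p of 0.205. It was also lost without the filter on low values (0.0714), with limma-voom (0.0633) and with only the compared groups in the fit (0.0773). On day 1 the sham difference had the other sign, 0.34 ± 0.14 (adjusted p = 0.18). Whether the IF difference of Dll4 varied between days was not shown: the F test gave an adjusted p of 0.102 in sham and 0.335 in BCAS. In that test, chosen after the daily values were seen, 0 of 9 genes passed in limma after either operation, beside 0.00637% of all genes in sham and 0.0255% in BCAS. An unadjusted p below 0.05 was found for 2 of 9 genes in each, beside 2589 of all 15707 genes in sham and 1228 in BCAS. Unadjusted p-values for Dll4 were 0.00176 in sham and 0.00395 in BCAS. The opposite-strand transcript Gm14207 shares 5.56% of the exon bases of Dll4 and had a median of 2.99 FPKM. As the sources used here do not say whether counting used strand, reads of Dll4 and Gm14207 in that stretch cannot be told apart.

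Hey1 in BCAS on day 21 had 4.80, 6.10, 4.88 and 4.70 FPKM with IF, against 7.94, 7.78, 6.84 and 9.24 FPKM with AL. Those groups did not overlap either, and the change was -0.55 ± 0.13 (adjusted p = 0.0222). Leaving out 1 library took this call past the threshold in 6 of 78 fits (replicates 1, 3 and 4 of BCAS IF and 1, 2 and 4 of BCAS AL on that day), at most to an adjusted p of 0.173. With only the compared groups in the fit it was lost as well (0.0903). The fourth test was Notch1 in sham on day 7, with 2.03, 1.04 and 1.03 FPKM in sham IF, against 1.53, 2.43, 1.45 and 4.83 FPKM in sham AL. The groups overlapped, and the AL values of 2.43 and 4.83 FPKM were those of the short-gene-rich libraries. The Notch1 change was -0.52 ± 0.17 (adjusted p = 0.0369), and -0.10 ± 0.17 (adjusted p = 0.833) without those libraries. It also missed the threshold in 4 other settings, with adjusted p-values of 0.0507 with the brain marker covariate, 0.0591 without the filter, 0.0643 with limma-voom and 0.693 with only the compared groups.

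Receptors were the members called between days. Within arms, an F test over the 5 days passed for Notch3 in BCAS AL (F = 13.0, adjusted p = 8.45e-05), for Notch3 and Notch4 in BCAS IF (F = 5.26 and 11.4, adjusted p = 0.0298 and 0.000311) and for Notch1, Notch3 and Notch4 in sham AL (F = 6.98, 4.14 and 3.92, adjusted p = 0.00432, 0.0363 and 0.043). None of the 9 genes passed in sham IF in limma, where Notch4 came closest (adjusted p = 0.0569, and 0.0329 in limma-voom). In that arm 4 of the 9 genes had an unadjusted p below 0.05, beside 2762 of all 15707 genes. The shares of all genes that passed were 5.23% in BCAS IF, 4.48% in BCAS AL, 1.88% in sham IF and 17.3% in sham AL. No ligand and no Hey gene passed in any arm. Unadjusted p-values of the F test were below 0.05 for Hey1 (0.0168) and Hey2 (0.0326) in BCAS AL. They were also below it for Dll4 (0.0147) and Heyl (0.0248) in BCAS IF, and for Dll4 in sham IF (0.0111). Of all 15707 genes, 2802 had one in BCAS AL and 3224 in BCAS IF. The calls of Notch3 in BCAS AL and Notch4 in BCAS IF were made in all 78 fits without 1 library, that of Notch3 in BCAS IF was lost in 6, and in sham AL those of Notch1, Notch3 and Notch4 were lost in 1, 8 and 10. With the brain marker covariate the sham AL calls of Notch3 and Notch4 were lost (adjusted p = 0.0992 and 0.0928). With only the compared groups in the fit all 3 sham AL calls were lost (0.231 for Notch1, 0.33 for Notch3 and 0.254 for Notch4), as was Notch3 in BCAS IF (0.0716), while Hey1 and Hey2 passed in BCAS AL (0.0178 and 0.0367) and Notch3 in sham IF (0.0494). Without the filter Notch3 and Notch4 in sham AL (0.0653 each) and Notch3 in BCAS IF (0.0588) were lost. Without the short-gene-rich libraries Notch3 in both BCAS arms and Notch4 in BCAS IF again passed, the 3 calls in sham AL were lost (adjusted p = 0.355 for Notch1, 0.136 for Notch3 and 0.272 for Notch4) and the same 3 receptors passed in sham IF (0.0436, 0.0322 and 0.0347).

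Notch3 was low on day 7 and higher from day 14 on in the BCAS arms. In BCAS AL it had 18.4, 21.2 and 22.5 FPKM on day 1, and 14.1, 13.7, 16.2 and 15.3 FPKM on day 7. On day 14 the BCAS AL values were 28.9, 28.4, 32.2 and 26.3 FPKM, on day 21 they were 19.0, 25.1, 23.0 and 31.4 FPKM, and on day 30 they were 29.7, 27.9, 26.9 and 30.5 FPKM. No day 7 library of this arm reached any library of another day. How many of all genes show such a gap was not counted. In the F test over days in BCAS AL, 9 of 10 smooth muscle markers had an unadjusted p below 0.05, beside 2802 of all 15707 genes. Between the lowest and the highest of the 20 group means, both in BCAS AL, Notch3 differed 1.96-fold.

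In BCAS IF the Notch3 mean was 19.6 ± 3.39 FPKM on day 1, 17.9 ± 3.44 on day 7, 25.5 ± 1.34 on day 14, 25.2 ± 5.36 on day 21 and 25.9 ± 2.34 on day 30 (SD, n = 4 each). In sham IF the means were 20.1 ± 1.66, 15.4 ± 2.99 (n = 3), 24.0 ± 2.63, 20.5 ± 1.70 and 22.6 ± 1.67 FPKM on the same days, and in sham AL they were 16.0 ± 0.669, 16.4 ± 5.12, 21.0 ± 2.66, 19.8 ± 3.75 and 22.4 ± 3.22 FPKM. Only in sham AL was day 7 not the lowest mean. The smooth muscle score was lowest on day 7 by its median in BCAS IF (6.52), BCAS AL (6.38) and sham IF (6.61), and on day 14 in sham AL (6.56), and its part in the Notch3 course was not tested.

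Notch4, an endothelial receptor, had a different course, with its highest levels on day 1 in the IF arms. In BCAS IF it had 11.6, 12.1, 10.4 and 12.0 FPKM on day 1, against 7.01, 8.28, 6.68 and 5.60 FPKM on day 21. Those days did not overlap, but they held the highest and the lowest of all group means of Notch4 and were picked after these were seen. For every member but Jag2 the libraries of the highest and the lowest group did not overlap. How many of all genes lack overlap between such extremes was not counted. In sham IF the mean was 10.5 ± 1.40 FPKM on day 1 and between 7.70 ± 0.657 and 8.34 ± 1.14 FPKM on the later days. Notch4 had its highest BCAS AL mean on day 1 as well, 9.48 ± 0.657 FPKM, whereas in sham AL the highest mean was that of day 7, 9.75 ± 1.66 FPKM. The endothelial score was highest on day 1 by its median in BCAS IF (5.02) and sham IF (4.97), on day 7 in BCAS AL (4.99) and on day 30 in sham AL (4.92), and its part in the Notch4 course was not tested.

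**Figure D4:**
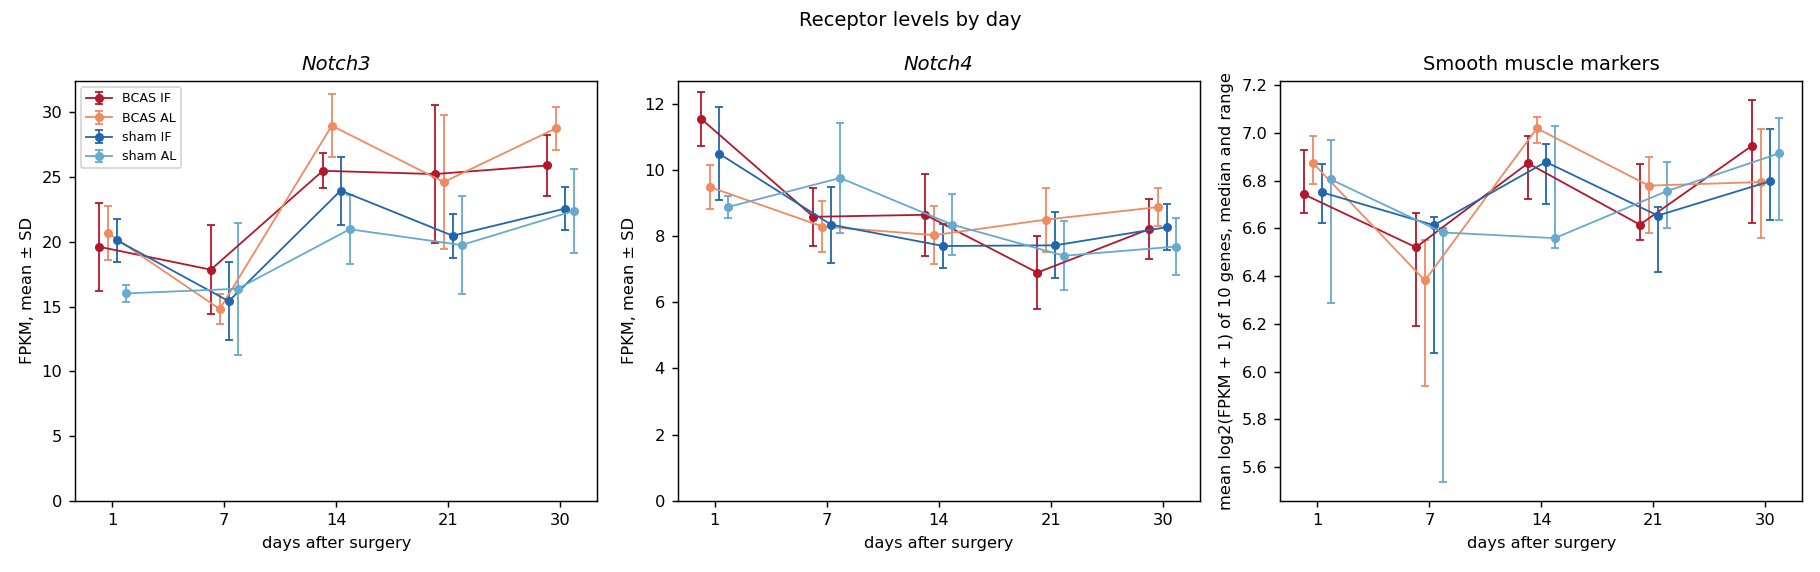
Notch3 and Notch4 (FPKM, mean and SD of 3 or 4 libraries) and the smooth muscle marker score (median and range) by day after surgery in the 4 arms. Notch3 and the score dip on day 7 in BCAS AL, while Notch4 starts at 11.5 FPKM on day 1 in BCAS IF.

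Ordered by group mean, most neighbours among the 20 groups differed by less than the larger of their SDs. Sorting 20 means makes gaps between neighbours small, so this does not tell whether groups differ. Of the 19 neighbouring pairs, 1 was further apart than that for Notch1, 1 for Notch3 and 1 for Jag1, and none for the other 6 genes. Dll4 was highest in BCAS AL on day 14 (10.1 ± 1.57 FPKM) and lowest in sham IF on day 14 (5.35 ± 0.681 FPKM). Jag1 was highest in BCAS AL on day 14 (30.4 ± 2.71 FPKM) and lowest in sham IF on day 30 (21.8 ± 1.91 FPKM). Hey1 was highest in BCAS AL on day 14 (8.23 ± 0.630 FPKM) and lowest in BCAS IF on day 7 (5.05 ± 0.380 FPKM). Hey2 and Heyl were both highest in BCAS IF on day 30 (21.1 ± 3.08 and 44.3 ± 7.90 FPKM), with their lowest means on day 7, at 12.8 ± 3.35 FPKM in sham AL for Hey2 and 29.2 ± 4.11 FPKM in BCAS AL for Heyl. Jag2 was the steadiest by group, from 14.1 ± 3.95 FPKM in BCAS AL on day 1 to 10.5 ± 1.72 FPKM in sham AL on day 21, a difference of 1.34-fold with overlapping libraries.

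Within groups, Notch3, Hey2 and Heyl varied together from library to library, and so did Notch4 and Jag2. Correlations were taken on log2(FPKM + 1) after subtracting group means, over 78 libraries, with permutations of libraries within groups whose smallest possible p is 1e-05. Of the 36 pairs of members 16 passed the threshold after Benjamini-Hochberg adjustment over the 36, all with positive r. Hey2 and Heyl had r = 0.80 and rho = 0.80 (p = 1e-05 each, adjusted 7.2e-05 and 0.00012), with r = 0.77 without the 2 libraries farthest from the median of Hey2. Notch4 and Jag2 had r = 0.76 and rho = 0.78 (p = 1e-05 each, adjusted 7.2e-05 and 0.00012), with r = 0.76 without the 2 farthest libraries. For Notch3 with Heyl r was 0.70 and rho 0.67 (p = 1e-05 each, adjusted 7.2e-05 and 0.00012), with r = 0.62 without the 2 farthest. Dll4 and Jag2 had r = 0.56 and rho = 0.55 (p = 1e-05 and 3e-05, adjusted 7.2e-05 and 0.00018), and r = 0.57 without the 2 farthest. Notch3 and Notch4, both receptors, had r = 0.03 and rho = 0.08 (p = 0.866 and 0.569, adjusted 0.891 and 0.628), and r = 0.12 without the 2 farthest.

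**Figure D5:**
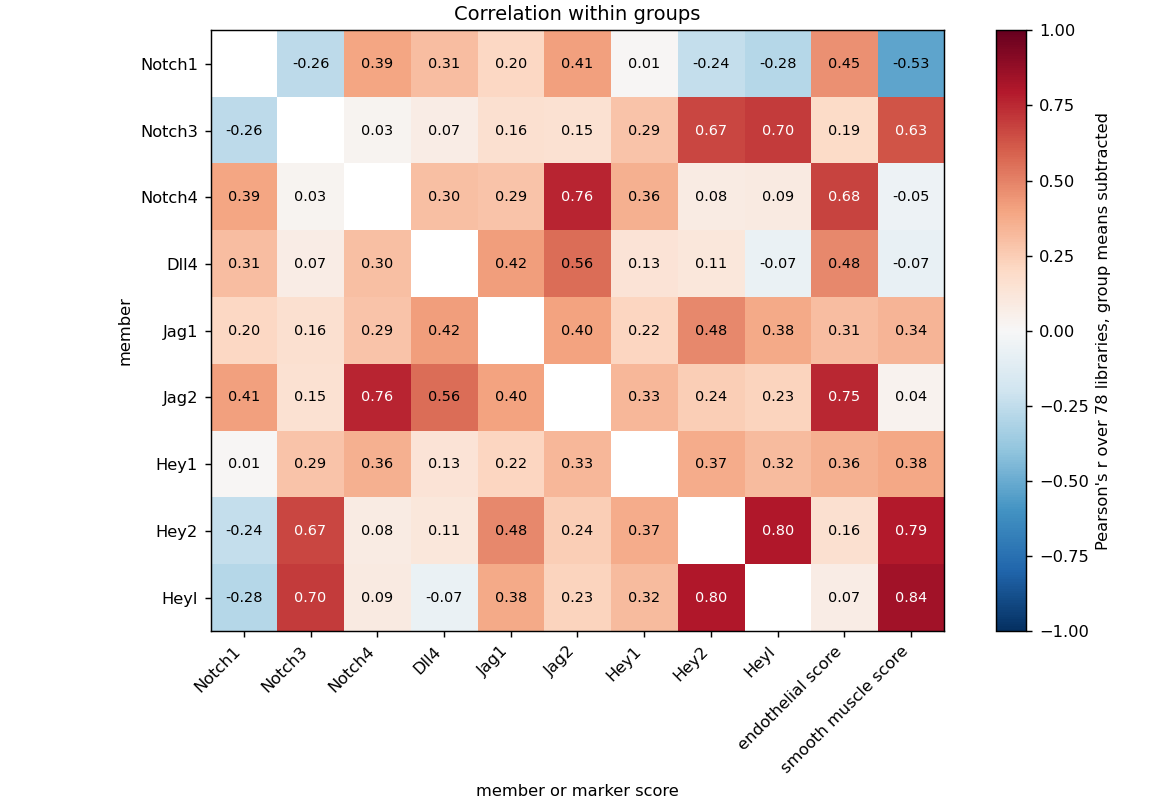
Pearson's r between the 9 genes, and of each gene with the endothelial and smooth muscle scores, over 78 libraries after subtracting group means. Notch3, Hey2 and Heyl share high values with each other and with the smooth muscle score, and Notch4 and Jag2 with each other and with the endothelial score.

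None of the 9 genes is part of the marker scores. Acta2 and Myh11 of the smooth muscle score are themselves among genes described as responsive to Notch. Within groups, Heyl followed the smooth muscle score with r = 0.84 and rho = 0.83 (p = 1e-05 each, adjusted over 36 relations 3.6e-05 and 4e-05), and r was 0.81 without the 2 libraries farthest from the median score. For Hey2 r was 0.79 and rho 0.80 (p = 1e-05 each, adjusted 3.6e-05 and 4e-05), with r = 0.74 without the 2 farthest. For Notch3 r was 0.63 and rho 0.55 (p = 2e-05 and 3e-05, adjusted 6.55e-05 and 9e-05), with r = 0.52 without the 2 farthest. Against the endothelial score Jag2 had r = 0.75 and rho = 0.75 and Notch4 had r = 0.68 and rho = 0.67 (p = 1e-05 for each, adjusted 3.6e-05 and 4e-05), with r = 0.74 and 0.65 without the 2 farthest. Dll4 followed the endothelial score with r = 0.48 and rho = 0.42 (p = 0.0001 and 0.00125, adjusted 0.000277 and 0.0025), and r was 0.40 without the 2 farthest. Jag1 followed both scores, with r = 0.31 and rho = 0.32 for the endothelial score (p = 0.0137 and 0.013, adjusted 0.0214 and 0.0222) and r = 0.34 and rho = 0.44 for the smooth muscle score (p = 0.00781 and 0.00024, adjusted 0.0134 and 0.000617), and without the 2 farthest r was 0.29 and 0.44. Hey1 also followed both, with r = 0.36 and rho = 0.35 for the endothelial score (p = 0.00298 and 0.00373, adjusted 0.00565 and 0.00707) and r = 0.38 and rho = 0.35 for the smooth muscle score (p = 0.00242 and 0.00777, adjusted 0.00484 and 0.014), and without the 2 farthest r was 0.39 and 0.34. Notch1 ran in opposite directions. For the endothelial score its r was 0.45 and rho 0.44 (p = 0.00014 and 0.00064, adjusted 0.00036 and 0.00144), with r = 0.47 without the 2 farthest. For the smooth muscle score its r was -0.53 and rho -0.28 (p = 0.00623 and 0.0444, adjusted 0.0112 and 0.0666), with r = -0.35 without the 2 farthest, so that by rank it did not pass. Libraries share their depth and their mix of tissue, so these values describe which genes vary together within a group.

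Genes of most similar pattern were looked up among protein-coding genes with a mean of at least 1 FPKM, by Pearson's r over the 78 libraries after subtracting group means, as a description. For Notch4 the nearest were Pecam1 (r = 0.78), Jag2 (0.76) and Sema3g (0.76). For Jag2 they were Slc9a3r2 (0.81), Acvrl1 (0.79) and Notch4 (0.76). For Notch3 they were Gucy1b1, Camk2g and Adgrl1 (0.77 each), for Hey2 Pde3a (0.86), Gucy1a1 (0.85) and Aspn (0.85), and for Heyl Ppp1r12b (0.86), Lmod1 (0.85) and Cspg4 (0.85). For Notch1 they were Pkd1 (0.83), Cdc42bpa (0.82) and Fam13b (0.80). Weaker likeness was found for Dll4, with Afap1l2 (0.66), Mecom (0.60) and Plcg2 (0.59), for Jag1, with Slain2 (0.68), Arhgef15 (0.68) and Fam135a (0.67), and for Hey1, with Mast4 (0.64), Rhoj (0.57) and Rasip1 (0.57).

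A further 57 genes of the pathway, in 6 lists of other receptors and ligands, processing enzymes, turnover, the nuclear complex, other targets and smooth muscle genes described as responsive to Notch, gave 55 that were tested. Some of them also served as markers above. Efnb2, Gja4, Gja5, Sox17, Unc5b, Nrp1 and Cxcr4 were arterial endothelial markers, and Acta2 and Myh11 smooth muscle markers. For BCAS against sham over both diets 3 of these rose and 2 fell, 9.09% of the 55, beside 3.54% of all genes. The ligand Dll1 rose by 0.23 ± 0.06 (adjusted p = 0.017) and Pdgfrb, a growth factor receptor of mural cells, by 0.10 ± 0.02 (0.00682), while Grip2 fell by 0.31 ± 0.07 (0.00222) and Susd5 fell by 0.33 ± 0.07 (0.00217). Under AL only Dll1 rose, by 0.34 ± 0.09 (0.0349), and under IF Grip2 and Susd5 fell, by 0.42 ± 0.10 (0.0165) and 0.39 ± 0.10 (0.049), so that 1 of 55 passed with AL (1.82%, beside 0.987% of all genes) and 2 of 55 with IF (3.64%, beside 0.758%).

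With IF against AL over both operations 9 of the 55 rose and 14 fell, or 41.8%, close to the 38.1% of all genes. Dll1 fell by 0.47 ± 0.06 (adjusted p = 6e-09) and Gja5, the gap junction protein connexin 40 of arterial endothelium, fell by 0.41 ± 0.05 (7.9e-09). Dtx1, a ubiquitin ligase that binds Notch, fell by 0.19 ± 0.03 (1.72e-06), and Efnb2, an arterial ephrin, fell by 0.18 ± 0.03 (3.14e-06). Of the 10 other targets 1 rose and 4 fell. The median change was -0.12 in that list, against 0.01 for all genes. Among BCAS arteries 5 of 55 rose and 9 fell (25.5%, near the 23.1% of all genes), the falls including Hes1, the prototype Notch target, by 0.29 ± 0.06 (adjusted p = 0.00021) and Gja5 by 0.39 ± 0.08 (6.67e-05). Sham arteries had 4 higher and 7 lower (20%, below the 23.7% of all genes), with Gja5 lower by 0.42 ± 0.08 on the log2 scale (2.49e-05) and Numbl, a relative of the Notch inhibitor Numb, higher by 0.15 ± 0.03 (0.000826). For the interaction 0 of the 55 passed in limma, and 1 had an unadjusted p below 0.05, beside 629 of all 15707 genes.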

How the data were processed

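Cerebral artery RNA of 78 libraries was read from 1 table. The authors deposited FPKM values beside each gene's length, per the file headers. The submitters' processing notes name DESeq 1.10.1 but not its use. Aligner, counter, genome build and annotation are not given in the sources used here. GENCODE M21 held 54409 of the table's identifiers, 98.3% at identical coordinates (8 of the 9 members), so positions are on GRCm38. FPKM times gene length gave whole fragments in each library within 0.05 for 100% of values below 1000 fragments, which gave the depth. Tests used limma 3.58.1 in R 4.3.3, with robust (statmod 1.5.0) and trended variances, on log2(FPKM + 1), with 1 mean for each of the 20 groups, all 78 libraries in 1 fit, no covariate and two-sided p-values adjusted over all 15707 genes. The fit was tested on simulated data. Correlations used 100000 permutations within groups. The members, the gene lists and the markers were chosen with earlier results of these data known. All members are named; of other pathway genes, at most 4 per contrast by smallest p. Alternatives were a pseudocount of 0.1, no filter, size factors, limma-voom on recovered fragments, limma without its options, a brain marker covariate, fits without the short-gene-rich libraries or on the compared groups only, and leaving out each library.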

Additional observations from a re-analysis of the deposited data

Results flagged for a closer look

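Within groups of 4 libraries, 15 of 162 tests of a member in a group had 1 library far from the other 3 by Dixon's criterion, where chance gives about 1 in 20. For Notch3 these were 8.71 FPKM in sham AL day 7 replicate 4, 17.2 in BCAS IF day 21 replicate 4 and 20.1 in sham IF day 30 replicate 2, each below its group. For Notch4 they were 9.35 FPKM in BCAS AL day 14 replicate 1 and 12.6 in sham IF day 1 replicate 3, both above, and 6.86 in BCAS IF day 30 replicate 1, below. Dll4 had 11.5 FPKM in sham IF day 1 replicate 4 and 6.36 in sham IF day 14 replicate 1, both above. Jag2 had 14.4 FPKM in sham AL day 7 replicate 4, above, and 11.0 in BCAS IF day 1 replicate 3, below. Hey1 had 5.98 FPKM in sham AL day 21 replicate 2, below, and 6.10 in BCAS IF day 21 replicate 2 and 8.78 in sham IF day 1 replicate 3, above. Hey2 had 21.9 FPKM in BCAS IF day 7 replicate 4, above, and Heyl 33.1 in BCAS AL day 14 replicate 2, below. Sham AL day 7 replicate 4, flagged for Notch3 and Jag2, was also the library with the largest share of fragments in short genes.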

How the results depend on the processing

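The number of members called for BCAS under AL was 1 in the design used, 0 without the filter on low values and with only the compared groups in the fit, and 0 to 2 when 1 library was left out. For IF in sham it was 3, 1 without the filter, 1 without the 3 short-gene-rich libraries, and 1 to 3 without 1 library. The 4 daily calls of IF against AL became 2 without the filter, 2 with limma-voom and 1 with only the compared groups. The 6 calls between days within arms became 3 without the filter, 4 with the brain marker covariate, 5 with only the compared groups and 7 with limma-voom. The 4 calls for BCAS over both diets became 3 without the filter and 3 with the brain marker covariate. For BCAS on single days the count was 0, 1 without the short-gene-rich libraries, and 0 to 1 without 1 library, and for a BCAS difference varying between days it was 0, and 0 to 1 without 1 library. The cause of these differences was not tested, except that the filter changes how many genes enter the adjustment. Changes near 0 turned sign: Notch4 with IF under limma-voom (-0.0013 in sham, -0.0041 in BCAS, -0.0027 in both), and the interaction without the short-gene-rich libraries for Notch1 (-0.0476) and Jag1 (-0.0184). Without 1 library the ranges that cross 0 were, for BCAS, Notch1 under AL (-0.0299 to 0.0572) and Heyl under IF (-0.0026 to 0.047). For IF they were Notch4 in sham (-0.0075 to 0.0325), in BCAS (-0.0127 to 0.0201) and in both (-0.0019 to 0.0181), and Notch3 in BCAS (-0.0507 to 0.0058). For the interaction they were Notch1 (-0.0229 to 0.069), Notch4 (-0.0289 to 0.0111), Jag1 (-0.0134 to 0.026) and Hey2 (-0.0601 to 0.00031). No paired analysis was possible because the labels share no replicate numbers between groups. Averages over diets or operations and the interaction already use every group, so they have no fit on compared groups only. Notch1, with as few as 142 fragments in a library, is the member whose values depth limits most.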
